A study of Mus musculus with 42 samples.

Results

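The comparison described here is 3 days of hyperoxia against room air in newborn mice that lack the transcription factor NRF2 (gene Nfe2l2). Its members are 6 of the 42 arrays of the study, chosen by title: 3 knockout pups kept in oxygen until postnatal day 4 (P4) and 3 knockout pups of the same age kept in air. All 6 pups carry the genotype that the labels write Nrf-/-, and 6 wild-type (Nrf+/+) pups of the same age and exposures are used beside them, as are knockout pups after 1 and 2 days of exposure with their own air controls. Exposure began on the first day of life (P1) at an oxygen level of at least 95%, for 23 hours a day, with foster dams present, and air controls were kept in room air for as long. Each array holds RNA from the homogenised lung of 1 pup on an Affymetrix 3' expression array, so the 3 replicates of a group are animals. The labels name no Cre or promoter, and the sources used here do not give the strain, the sex of the pups or the hour of sampling.

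NRF2 is a transcription factor that is held at low levels by KEAP1 and, when oxidants or electrophiles modify that partner, moves to the nucleus and binds antioxidant response elements with small MAF proteins. Its targets make and recycle glutathione, supply NADPH, reduce quinones and conjugate electrophiles. The newborn mouse lung is still in its saccular stage, and prolonged high oxygen at that age injures its epithelium and capillaries and is used as a model of bronchopulmonary dysplasia, the chronic lung disease of preterm infants.

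Values are log2 expression levels as deposited, so a difference of 1 is a doubling. They were compared with limma for 18194 genes, each represented by 1 probe set, and a gene is called where its p-value adjusted over all genes is under 0.05. Pearson's r between arrays over these genes was 0.996 to 0.997 within the air group, 0.989 to 0.994 within the hyperoxia group and 0.972 to 0.984 between them. The deletion itself could be read from the main Nfe2l2 probe set, at 4.85, 4.79 and 4.64 in the knockout air arrays and 4.81, 4.41 and 5.46 in the knockout hyperoxia arrays, against 10.3 to 11.6 in the wild-type arrays of all ages. The typical 10th percentile of an array was 4.27, so the knockout values lie near the bottom of the range. For genes whose air values lie as low (Il6, Cxcl2, Cxcl5, Ereg and Eda2r) the log2 difference of the deposited values is given and no fold. A second Nfe2l2 probe set did not follow the deletion: it read 5.43, 5.52 and 5.30 in knockout air and 6.63, 6.89 and 6.58 in knockout hyperoxia. The wild-type hyperoxia arrays read 7.36, 6.78 and 7.25 on that probe set.

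The 2 groups differ in the expression of sex-linked genes. Xist, the RNA that silences one X chromosome in females, was at 12.01, 11.89 and 11.69 in the air arrays and 7.21, 6.78 and 6.64 in the hyperoxia arrays. Eif2s3y, a gene of the Y chromosome, was at 4.2, 4.02 and 4.18 in air and 9.55, 9.71 and 9.55 in hyperoxia. Within these 6 arrays sex and exposure therefore cannot be told apart. Across the study both sexes occur within several groups, and a score of sex-linked genes fitted over all 42 arrays was called for 14 genes. Of these, 6 were also called for hyperoxia. The score was built from Xist, Eif2s3y, Kdm5d and Uty, which are among the 14, so their calls follow from its construction. With that score as a covariate 5067 genes were called for hyperoxia, 4773 of them among those called without it. Of 617 X-linked genes 31.6% were called, and of 17405 autosomal genes 31.9%. These shares cannot separate sex from exposure either.

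After 3 days of hyperoxia the knockout lung had higher levels of acute phase, cytokine, p53 target and stress genes, and lower levels of mitotic genes, club cell enzymes and several mesenchymal and vascular factors. Of the genes tested, 5760 were called (31.7%), 3089 higher in hyperoxia (17.0%) and 2671 lower (14.7%). At least 2-fold changes numbered 700 (3.85%), with 406 higher and 294 lower. The median difference over all genes was 0.04. The balance of the calls was not stable: 53.6% of them were higher, 50.0% with loess and with the sex gene score, 47.1% with array weights and 43.9% without the second air pup. At an unadjusted p under 0.05 the number was 7494. In 7531 genes (41.4%) the 3 hyperoxia arrays did not overlap the 3 air arrays.

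**Figure D1:**
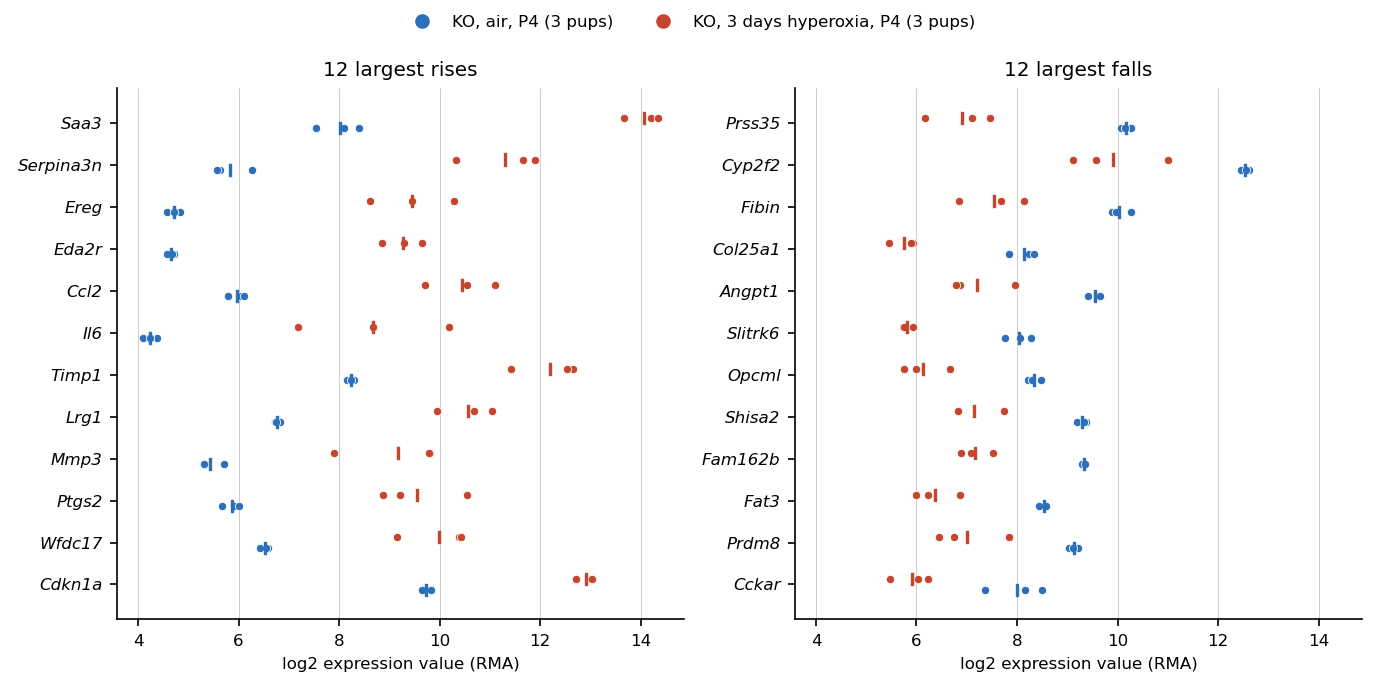
Log2 expression in each knockout array at P4 for the 12 largest rises (left) and the 12 largest falls (right) among called genes; every point is 1 pup, blue in air and red after 3 days of hyperoxia, and vertical bars are group means. The air pups lie close together, as for Cyp2f2 at 12.46 to 12.61, while the hyperoxia pups spread further, at 9.12 to 11.01 for the same gene.

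The largest rise was that of Saa3, a serum amyloid A protein that injured epithelium and macrophages make during the acute phase. Its level was 8.10, 8.39 and 7.55 in air and 14.20, 14.35 and 13.66 in hyperoxia, a 66.7-fold rise (6.06 ± 0.41 SE on the log2 scale, limma adjusted p = 6.12e-13). Every hyperoxia pup stood more than 5 log2 units above every air pup. Serpina3n, a secreted protease inhibitor of the same response, rose 44.4-fold, from 5.62, 6.27 and 5.58 to 11.90, 11.66 and 10.33 (adjusted p = 7.95e-07). Lrg1, a secreted glycoprotein that STAT3 induces, rose 13.9-fold, from 6.72, 6.82 and 6.74 to 11.05, 10.68 and 9.95. In hyperoxia the third replicate was the lowest for all 3 genes. The 12 largest rises and falls were named among genes whose groups did not overlap, so their separation follows from that choice. Lcn2, which binds bacterial iron carriers, rose 5.02-fold (adjusted p = 3.76e-10). Of the 15 measured genes in the acute phase list, 10 rose and none fell, against 17.0% and 14.7% of all genes. The median difference was 1.38. In wild type 10 of the 15 rose and none fell, against 15.0% and 12.5% of all genes, with a median of 0.99.

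The cytokine Il6 was at 4.37, 4.10 and 4.24 in air, near the bottom of the range, and at 8.67, 10.19 and 7.18 in hyperoxia (4.44 ± 0.37 SE, adjusted p = 8.77e-11). Its relative Lif, which signals through the same receptor subunit, rose 8.24-fold from 6.23, 6.27 and 6.31 to 8.79, 10.32 and 8.83. Socs3, the feedback inhibitor that STAT3 induces, rose 7.03-fold from 8.74, 8.64 and 8.88 to 11.61, 12.13 and 10.96. In all 3 genes the second hyperoxia pup was the highest. The oncostatin M receptor gene Osmr rose 6.66-fold (adjusted p = 8.44e-15). Together 17 of 18 measured genes of the IL-6 family and STAT3 list rose and none fell, with a median difference of 1.49. Of all genes 17.0% rose and 14.7% fell. In wild type 16 of the 18 rose and none fell, against 15.0% and 12.5% of all genes, with a median of 1.52. No member was called for a genotype difference, but only 0.561% of all genes were.

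Chemokines rose along with these. Ccl2, which draws monocytes, was at 6.04, 5.78 and 6.10 in air and 10.55, 11.10 and 9.70 in hyperoxia, a 22.2-fold rise (4.48 ± 0.27 SE, adjusted p = 5.09e-14). Cxcl2, a neutrophil attractant, rose by 2.99 ± 0.35 SE on the log2 scale, from 4.71, 4.44 and 4.52 to 7.74, 8.45 and 6.45. The chemokine gene Ccl3 rose 4.17-fold. Cxcl5, also a neutrophil attractant, lay below the typical 10th percentile in air, at 3.96, 3.83 and 3.98, and at 7.36, 7.84 and 5.63 in hyperoxia. For Cxcl2 and Cxcl5 the third hyperoxia pup was the lowest and still clear of the air pups. In the chemokine and cytokine list 21 of 28 measured genes rose and 1 fell, against 17.0% and 14.7% of all genes. In the list of NF-kB feedback genes 13 of 15 rose and none fell. In wild type 19 of the 28 and 13 of the 15 rose, against 15.0% of all genes. No member of either list was called for a genotype difference, but only 0.561% of all genes were. Icam1, the endothelial and epithelial adhesion molecule that NF-kB induces, rose 4.16-fold, and Sod2, the mitochondrial superoxide dismutase, 2.70-fold.

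Other signalling genes showed rises as large. Ereg, a ligand of the EGF receptor, was at 4.84, 4.58 and 4.71 in air and 9.45, 10.29 and 8.62 in hyperoxia (4.74 ± 0.25 SE on the log2 scale, adjusted p = 3.08e-15). Hbegf, a ligand of the same receptor, rose 3.69-fold. Ptgs2, the inducible cyclooxygenase, rose 12.8-fold from 5.67, 5.91 and 6.0 to 9.21, 10.54 and 8.88, and Ptges, the synthase that makes prostaglandin E from its product, rose 4.08-fold. Hpgd, which breaks prostaglandins down, fell 2.35-fold (adjusted p = 0.000109). Among tissue protease genes, Timp1, an inhibitor of matrix metalloproteinases, rose 15.8-fold from 8.30, 8.16 and 8.23 to 12.65, 12.54 and 11.42. Mmp3, a stromal metalloproteinase, rose 13.2-fold from 5.31, 5.31 and 5.70 to 9.81, 9.80 and 7.89. The third hyperoxia pup was the lowest in both. Fst, which binds and blocks activins, rose 8.83-fold from 6.20, 5.81 and 6.32 to 9.15, 9.93 and 8.67.

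**Figure D2:**
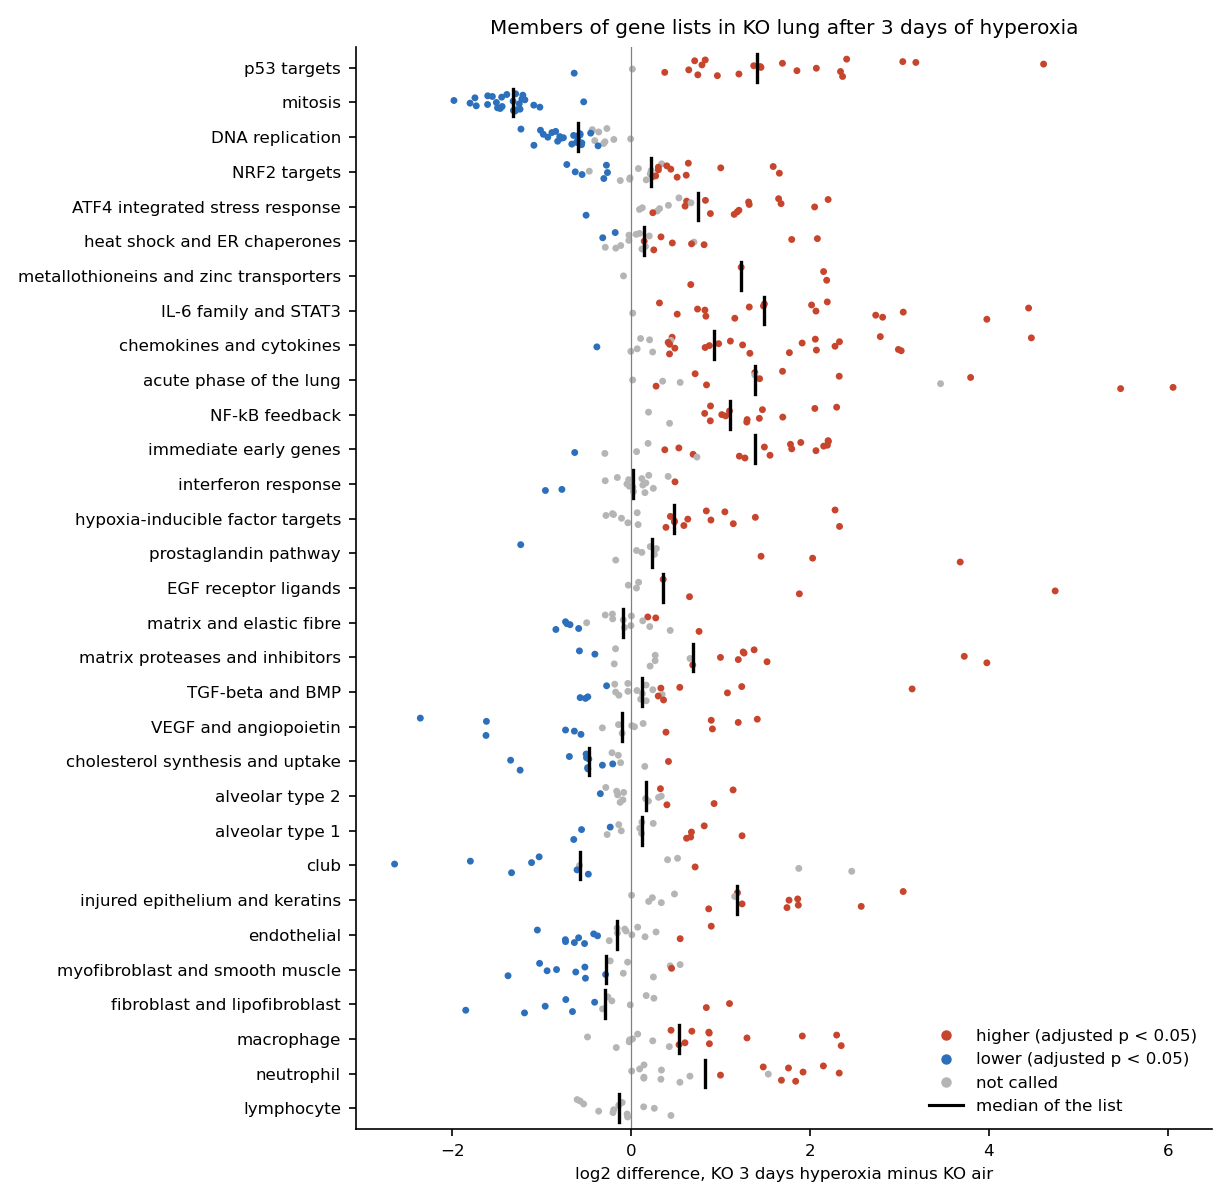
Log2 difference between 3 days of hyperoxia and air in knockout lung for every measured member of 31 gene lists; each point is 1 gene, red where higher, blue where lower and grey where not called by limma, and black bars are list medians. The mitosis points all lie left of zero, with a median of -1.32, and the p53 points lie almost wholly to the right, with a median of 1.41.

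The targets of NRF2 itself were split. Of 27 measured genes in the list, 12 rose and 6 fell in the knockout, against 17.0% and 14.7% of all genes. The list median was 0.23. The count of rises was 6 without the first hyperoxia pup and 7 when limma used these 6 arrays alone, and 3 fell with those arrays alone. In wild type 21 rose and 1 fell, with a median of 0.85 (15.0% of all genes rose there). A test of the difference between the genotypes' responses called 11 of the 27, all with the lower response in the knockout, against 0.561% of all genes called and 0.401% called in that direction. The genotypes have their own air controls, so the 2 responses share no array.

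Gpx2, a glutathione peroxidase of epithelium, was at 6.22, 6.28 and 6.20 in knockout air and 7.04, 6.43 and 6.56 in knockout hyperoxia. In wild type it went from 6.97, 7.10 and 7.12 to 9.74, 9.81 and 10.03. The wild-type groups were far apart and the knockout groups only just separate. The response was smaller in the knockout by 2.35 on the log2 scale (difference -2.35 ± 0.22 SE, adjusted p = 8.32e-08), and the small knockout rise of 0.44 (adjusted p = 0.0269) was not called with the sex gene score as a covariate (0.26, adjusted p = 0.221). Srxn1, sulfiredoxin, which repairs overoxidised peroxiredoxins, was at 7.19, 6.94 and 7.55 in knockout air and 7.92, 7.76 and 7.55 in hyperoxia. The wild-type values were 7.48, 7.39 and 7.37 in air and 10.15, 9.62 and 10.10 in hyperoxia. In the knockout the third pups of both groups were level, whereas every wild-type hyperoxia pup exceeded every other pup. The genotype difference was -2.03 ± 0.22 SE (adjusted p = 9.67e-07). Txnrd1, the cytosolic thioredoxin reductase, had a difference of 0.17 in the knockout (adjusted p = 0.162), with group means of 9.87 in air and 10.04 in hyperoxia, and a rise of 1.52 in wild type. The test of that difference gave an adjusted p of 8.32e-08.

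Other targets moved down in the knockout while they rose in wild type. Nqo1, the quinone reductase often used as a readout of NRF2, went from 6.92, 6.64 and 6.72 to 6.27, 6.37 and 6.01 in the knockout, a fall of 0.55 (adjusted p = 0.00958). In wild type it rose by 0.88, from 7.17, 7.21 and 7.10 to 7.99, 7.92 and 8.22, and the genotype difference was -1.43 (adjusted p = 0.000919). The knockout fall of Nqo1 was not called without the first air pup or without the third hyperoxia pup. Gsta2, a glutathione transferase outside the fixed list and named as the largest genotype difference, was at 6.62, 6.24 and 6.35 in knockout air and 4.96, 5.45 and 5.17 in knockout hyperoxia. It rose in wild type from 6.06, 6.57 and 6.4 to 7.77, 8.31 and 8.31, so the responses differed by -3.00 ± 0.31 SE (adjusted p = 3.67e-07). Gstm1, a mu class transferase, fell by 0.62 in the knockout and rose by 0.37 in wild type (adjusted p of the difference = 0.000136).

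Among the 12 genes of the list that rose in the knockout, the largest rises were those of Hmox1, Ephx1 and Gclc. Hmox1, the haem-degrading enzyme that NRF2 and the repressor BACH1 control, was at 8.09, 7.83 and 8.10 in air and 9.62, 10.02 and 9.36 in hyperoxia, a 3.16-fold rise (adjusted p = 2.62e-11). Its rise was 1.66 in the knockout and 1.88 in wild type, and the difference between them was -0.22 (adjusted p = 0.601). Ephx1, the microsomal epoxide hydrolase, went from 8.78, 8.65 and 8.85 to 10.61, 10.04 and 10.40, a rise of 1.59 on the log2 scale against 2.00 in wild type (adjusted p of the difference = 0.218). Gclc, the catalytic subunit of the enzyme that limits glutathione synthesis, rose by 1.00 in the knockout, from 9.37, 8.98 and 9.29 to 10.11, 10.62 and 9.92, and by 2.32 in wild type. The Gclc difference of -1.32 had an adjusted p of 0.000271, which was 0.0603 when limma used only the 12 arrays of that contrast. Gclm, the modifier subunit of the same enzyme, was at 9.51, 9.32 and 9.72 in air and 9.49, 9.60 and 9.72 in hyperoxia (adjusted p = 0.661).

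**Figure D3:**
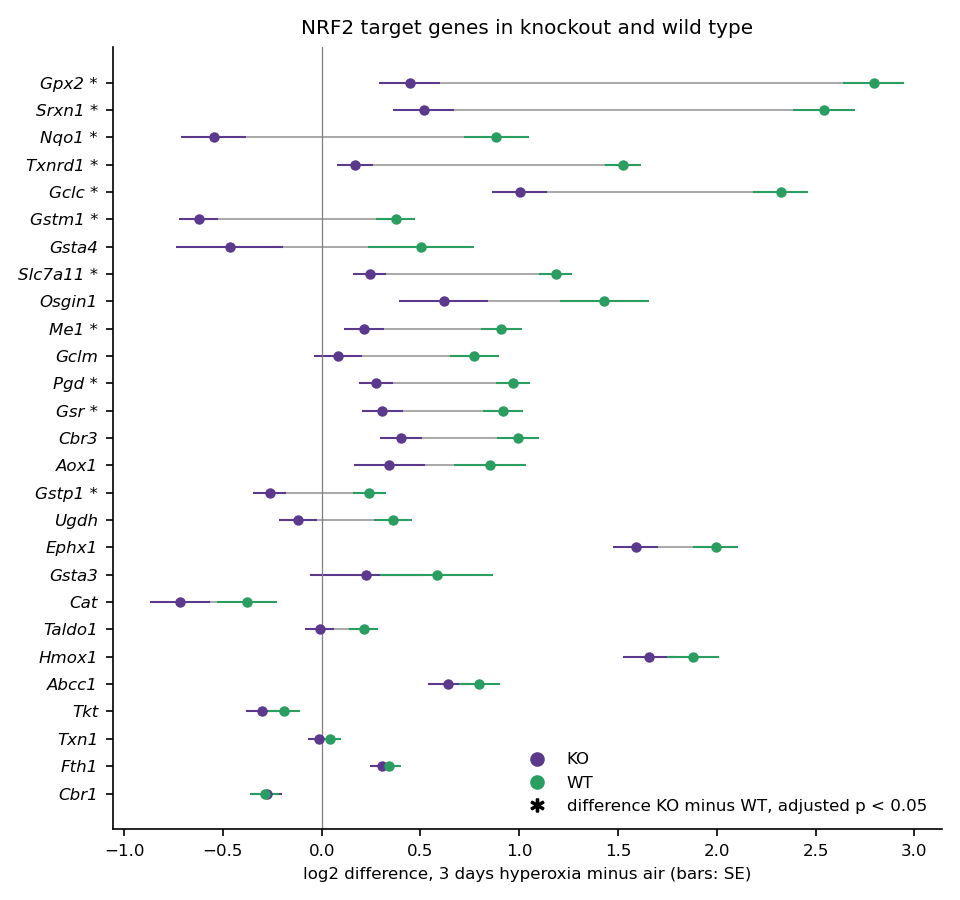
Log2 difference between 3 days of hyperoxia and air for the 27 measured NRF2 target genes in knockout (purple) and wild type (green); points are differences of group means, bars are standard errors, grey lines join the genotypes, and an asterisk marks a genotype difference called by limma. The knockout point lies left of the wild-type point by 2.35 for Gpx2 and by 2.03 for Srxn1, while that of Hmox1 lies 0.22 to the left.

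The promoters of the NRF2 target genes were searched for the antioxidant response element core, TGACNNNGC, on both strands, in RefSeq windows of the build GRCm38.p6 that run from 250 bases before to 50 bases after each listed start. The core occurred in 7 of the 22 target genes with a listed window (31.8%), in 16.1% of the 14453 tested genes with one and in 12.4% of all 32851 windows. No core lay in the windows of Gpx2, Nqo1, Gsta2 or Gstm1, and bases further from their starts were not searched. The windows of Srxn1 and Txnrd1, described above for their lower response in the knockout, hold the core and are printed here on the strand of the gene, with the core in capitals; both cores read on the opposite strand, so the capitals show the reverse complement. That of Srxn1 lies at chr2:152105274-152105573, plus strand, with the core 28 bases after the start. That of Txnrd1, 1 of 3 listed, lies at chr10:82858956-82859255, plus strand, with the core 92 bases before the start.
Srxn1: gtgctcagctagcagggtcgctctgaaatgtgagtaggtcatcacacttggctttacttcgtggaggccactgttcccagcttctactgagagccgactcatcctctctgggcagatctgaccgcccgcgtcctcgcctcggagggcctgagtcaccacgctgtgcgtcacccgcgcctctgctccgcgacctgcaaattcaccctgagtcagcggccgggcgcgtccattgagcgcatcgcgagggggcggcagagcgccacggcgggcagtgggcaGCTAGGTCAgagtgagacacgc
Txnrd1: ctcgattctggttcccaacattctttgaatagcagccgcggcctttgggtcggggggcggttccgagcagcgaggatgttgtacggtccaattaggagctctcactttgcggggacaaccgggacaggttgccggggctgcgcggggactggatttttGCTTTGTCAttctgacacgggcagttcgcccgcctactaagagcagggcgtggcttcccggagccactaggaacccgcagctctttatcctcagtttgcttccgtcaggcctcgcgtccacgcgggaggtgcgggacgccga

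Genes of the p53 response rose in the knockout and in wild type. The list holds direct targets of p53, the factor that DNA damage stabilises. In the knockout 20 of its 22 measured members rose and 1 fell, against 17.0% and 14.7% of all genes. The median difference was 1.41, against 1.40 in wild type. No member was called for a genotype difference, but only 0.561% of all genes were, so none in a list of this size says little. Of the 22 estimates 13 were positive. Cdkn1a, the cyclin-dependent kinase inhibitor p21, was at 9.73, 9.64 and 9.83 in air and 12.71, 13.01 and 13.04 in hyperoxia, a 9.09-fold rise (3.18 ± 0.16 SE, adjusted p = 1.81e-15). Its rise in wild type was 3.19. Eda2r, a member of the TNF receptor family, rose by 4.61 ± 0.26 SE on the log2 scale, from 4.71, 4.67 and 4.58 to 8.86, 9.28 and 9.65. Ccng1, cyclin G1, rose 8.21-fold from 9.49, 9.33 and 9.70 to 12.46, 12.67 and 12.50. In all 3 genes every hyperoxia pup stood more than 2 log2 units above every air pup. Smaller rises were those of the nuclease gene Aen (5.32-fold), the RNA-binding protein gene Zmat3 (5.15-fold), the AKT inhibitor gene Phlda3 (4.2-fold) and Mdm2, the ubiquitin ligase that degrades p53 (2.72-fold).

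Mitotic genes fell. All 27 measured genes of the mitosis list were called lower, between -0.53 and -1.98, with a median of -1.32, against 14.7% of all genes called lower. The mean level of the list was 9.50 to 9.83 in the air arrays and 7.87 to 8.83 in the hyperoxia arrays. Mki67, which encodes the proliferation marker Ki-67, went from 11.02, 10.77 and 11.06 to 9.16, 8.78 and 9.73, a 3.32-fold fall (-1.73 ± 0.28 SE, adjusted p = 1.53e-05). Cenpf, a kinetochore protein gene, went from 9.61, 9.45 and 9.63 to 7.52, 7.01 and 8.23, and Plk1, a kinase of mitotic entry and spindle assembly, from 9.48, 9.24 and 9.50 to 7.90, 7.31 and 8.54. The second hyperoxia pup was the lowest and the third the highest for all 3 genes, and none reached the air range. In whole lung, fewer cells of a type and less RNA per cell cannot be told apart. In wild type 19 of the 27 fell, against 12.5% of all genes, with a median of -0.95. All 27 estimates of the genotype difference were negative, with a median of -0.49, but none was called, against 0.561% of all genes.

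DNA replication genes also fell. Of 31 measured, 22 fell and none rose, against 14.7% and 17.0% of all genes. The median was -0.59, against -0.60 in wild type. The count of falls was 12 without the second hyperoxia pup, and 14 (median -0.36) with scores of other tissues as covariates. Lig1, the replicative DNA ligase, went from 10.29, 10.01 and 10.38 to 9.31, 9.15 and 9.28 (1.97-fold, adjusted p = 8.58e-05). Mcm4, a subunit of the replicative helicase, went from 11.03, 10.78 and 11.10 to 10.29, 10.11 and 10.13 (1.74-fold). Ccne2, the cyclin that drives entry into S phase, fell 2.35-fold, from 8.82, 8.59 and 8.94 to 7.23, 7.41 and 8.02. For each of these the lowest air pup stood above the highest hyperoxia pup.

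The windows of the mitotic genes were searched for the CHR element, TTTGAA, which binds the DREAM and MuvB complexes that repress and activate cell cycle genes, on both strands. It occurred in 16 of the 21 mitosis genes with a listed window (76.2%), in 4 of 26 DNA replication genes (15.4%) and in 15.7% of the tested genes with a window. CCAAT, the box bound by NF-Y, also occurred in 16 of the 21 mitosis genes, against 42.0% of the tested genes with a window. That box was also in 14 of 17 heat shock and chaperone genes (82.4%) and 14 of 22 NRF2 targets (63.6%). It was in 16 of 26 DNA replication genes (61.5%), but in 2 of 12 acute phase genes (16.7%). The windows of 3 mitotic genes described above are printed on the strand of the gene with the CHR letters in capitals, to show where they lie. That of Mki67, at chr7:135716330-135716629 on the minus strand, holds matches 116 and 98 bases before the start. That of Plk1, at chr7:122159185-122159484 on the plus strand, holds a match 30 bases after it, and that of Cenpf, at chr1:189688037-189688336 on the minus strand, a match 2 bases after it.
Mki67: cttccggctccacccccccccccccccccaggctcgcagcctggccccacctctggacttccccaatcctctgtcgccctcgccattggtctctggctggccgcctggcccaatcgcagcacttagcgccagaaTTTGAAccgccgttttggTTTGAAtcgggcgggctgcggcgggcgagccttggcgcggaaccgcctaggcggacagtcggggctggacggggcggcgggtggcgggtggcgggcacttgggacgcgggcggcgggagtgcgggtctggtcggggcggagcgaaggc
Plk1: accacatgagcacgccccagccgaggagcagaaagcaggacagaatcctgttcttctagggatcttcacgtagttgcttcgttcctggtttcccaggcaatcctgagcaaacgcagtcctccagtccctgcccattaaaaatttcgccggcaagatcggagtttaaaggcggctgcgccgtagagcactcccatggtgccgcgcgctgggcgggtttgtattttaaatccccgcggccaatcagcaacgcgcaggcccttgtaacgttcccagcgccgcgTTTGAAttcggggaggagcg
Cenpf: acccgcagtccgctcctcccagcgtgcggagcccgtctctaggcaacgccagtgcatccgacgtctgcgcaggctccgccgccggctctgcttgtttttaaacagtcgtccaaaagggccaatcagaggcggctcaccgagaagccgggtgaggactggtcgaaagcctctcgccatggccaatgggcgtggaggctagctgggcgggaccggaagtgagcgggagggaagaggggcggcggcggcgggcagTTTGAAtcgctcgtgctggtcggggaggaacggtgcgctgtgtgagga

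Epithelial genes moved in opposite directions by cell type. In the list of keratins and genes of injured epithelium 9 of 15 measured members rose and none fell, with a median of 1.19. Of all genes 17.0% rose and 14.7% fell. In wild type 8 of the 15 rose and none fell, against 15.0% and 12.5% of all genes, with a median of 0.76. Krt8, a keratin of simple epithelium, lay between 10.88 and 11.07 in the air pups and between 12.75 and 12.94 in the hyperoxia pups, a 3.66-fold rise (adjusted p = 4.20e-09), and its partner Krt18 rose 3.64-fold. Cldn4, a claudin of tight junctions, rose 8.24-fold from 7.86, 7.92 and 7.89 to 11.10, 11.06 and 10.64, and Lgals3, the lectin galectin-3, rose 5.95-fold. These 4 genes had narrow groups that did not overlap. Club cell genes fell in 7 of 13 measured cases and rose in 1, against 14.7% and 17.0% of all genes, with a median of -0.58. In wild type 7 of the 13 fell and none rose, against 12.5% and 15.0% of all genes, with a median of -0.73. Of the 13 genotype differences 1 was called, that of Cbr2, against 0.561% of all genes. The estimates were positive for 7 genes, with a median of 0.11. Cyp2f2, the cytochrome P450 by which club cells activate naphthalene, went from 12.61, 12.46 and 12.57 to 11.01, 9.12 and 9.57, a 6.25-fold fall (-2.64 ± 0.25 SE, adjusted p = 1.26e-09). Scgb1a1, the club cell secretoglobin, fell 1.52-fold, from 14.65, 14.72 and 14.70 to 14.23, 13.91 and 14.11, and the claudin gene Cldn10 fell 2.16-fold. Cbr2, a carbonyl reductase of club cells, went from 13.14, 13.02 and 13.21 to 12.10, 10.99 and 10.88. Its difference was -1.80 in the knockout and -0.41 in wild type (adjusted p of the genotype difference = 0.0016, and 0.120 with only the 12 arrays of that contrast).

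The alveolar lists were mixed. Of 15 measured type 2 cell genes, 4 rose and 1 fell, where 17.0% of all genes rose and 14.7% fell. The surfactant protein gene Sftpd rose 1.90-fold, from 12.77, 12.68 and 12.69 to 13.57, 13.80 and 13.55, and Ctsh, a protease that processes surfactant protein, rose 2.21-fold. Without the first air pup, the second hyperoxia pup or the third hyperoxia pup, 2 of the 15 rose. Sftpa1 stood at 13.20, 13.04 and 12.79 in air and 12.71, 13.02 and 13.02 in hyperoxia (adjusted p = 0.623), and those groups overlapped. Of 15 type 1 cell genes 5 rose and 3 fell. Aqp5, the water channel of type 1 cells, rose 1.76-fold and Pdpn, podoplanin, 1.54-fold, whereas Ager, their receptor for advanced glycation end products, had a difference of 0.12 (adjusted p = 0.244).

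Vessel genes moved in both directions. In the VEGF and angiopoietin list 6 of 17 genes fell and 5 rose, against 14.7% and 17.0% of all genes. The list median was -0.10. Angpt1, the ligand by which mural cells and fibroblasts stabilise endothelium, went from 9.60, 9.42 and 9.65 to 6.86, 6.79 and 7.95, a 5.12-fold fall (-2.36 ± 0.21 SE, adjusted p = 2.93e-10). Angpt2, its vessel-destabilising counterpart, went the other way, from 7.35, 7.36 and 7.55 to 8.73, 9.57 and 8.19 (2.66-fold). Their receptor gene Tek fell 1.66-fold and the apelin receptor gene Aplnr 3.07-fold. Vegfd, a lymphatic growth factor, fell 3.08-fold from 10.83, 10.43 and 10.70 to 8.74, 8.51 and 9.85. The placental growth factor gene Pgf rose by 0.91 (adjusted p = 5.08e-08), and Vegfa, the main angiogenic factor, rose by 0.39 (adjusted p = 0.0426), a call lost under 7 of 17 alternatives. Kdr, the main VEGF receptor, was at 10.92, 10.74 and 10.99 in air and 10.67, 10.82 and 11.20 in hyperoxia (adjusted p = 0.971), and its groups overlapped. Of 19 endothelial genes 8 fell and 2 rose, with 5 lower without the second hyperoxia pup.

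Among fibroblast and lipofibroblast genes 6 of 14 fell and 2 rose, against 14.7% and 17.0% of all genes. Wnt2, a growth signal from lung mesenchyme, fell 2.28-fold from 11.02, 11.02 and 11.07 to 9.61, 10.15 and 9.77, and Tcf21, a transcription factor of lipofibroblasts, fell 1.57-fold. Inmt, a methyltransferase of lung fibroblasts, rose 2.14-fold. In the matrix and elastic fibre list 5 of 19 fell and 3 rose, where 14.7% of all genes fell and 17.0% rose. Of these 19, 3 fell without the second hyperoxia pup and with the sex gene score. Mfap4 and Fbln5, which bind elastic fibres, fell 1.79-fold and 1.64-fold, while elastin itself (Eln) was at 13.43, 13.33 and 13.52 in air and 13.79, 13.43 and 13.46 in hyperoxia (adjusted p = 0.499). Tnc, tenascin C, a matrix protein of wound repair, rose 1.69-fold, and the fibronectin gene Fn1 was at 13.61, 13.59 and 13.61 in air and 13.53, 13.62 and 13.65 in hyperoxia (adjusted p = 0.996). Prss35, a serine protease-like gene and the largest fall, went from 10.26, 10.06 and 10.16 to 7.11, 6.17 and 7.45, 9.51-fold lower.

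Stress gene lists rose in part. In the list of ATF4 and the integrated stress response 14 of 22 rose and 1 fell, against 17.0% and 14.7% of all genes. Ddit3, the stress factor CHOP, rose 3.20-fold from 8.24, 8.10 and 8.26 to 10.04, 9.85 and 9.73, and Asns, asparagine synthetase, rose 3.14-fold. In the list of heat shock proteins and endoplasmic reticulum chaperones 8 of 21 rose and 2 fell, with a median of 0.15. The other 11 were not called. In wild type 5 of the 21 rose and 7 fell, against 15.0% and 12.5% of all genes, with a median of -0.11. The genotype difference was called for 4 of the 21, all with the more positive response in the knockout, against 0.159% of all genes. Its estimates were positive for 20 genes, with a median of 0.36. In the knockout the inducible heat shock genes Hspa1a and Hspa1b rose 4.24-fold and 3.47-fold. The 2 are near-identical copies and their probe sets may share signal. The endoplasmic reticulum chaperone gene Hsp90b1 fell by 0.32 (adjusted p = 0.0017), and Hspa5 had a difference of -0.02 (adjusted p = 0.829). The metal-binding metallothionein gene Mt2 rose 4.45-fold, from 10.07, 9.77 and 10.01 to 12.92, 12.24 and 11.14. Of 20 targets of the hypoxia-inducible factors 13 rose and none fell, among them the glucose transporter gene Slc2a1 (5.03-fold) and the vasodilator peptide gene Adm (4.86-fold).

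Some neutrophil and macrophage genes were also higher. Of 18 neutrophil genes 8 rose and none fell, against 17.0% and 14.7% of all genes, and 10 were not called. The mean level of that list was 7.18 to 7.28 in air and 7.90 to 8.47 in hyperoxia. The granule genes Ngp, Camp and Ltf, with differences of 0.14, 0.15 and 1.53, were not called. S100a8 and S100a9, the subunits of calprotectin, rose 3.21-fold and 3.58-fold. S100a8 went from 11.12, 10.86 and 11.33 to 12.89, 13.04 and 12.44, with no overlap. Of 19 macrophage genes 11 rose and none fell. In wild type 9 of the 18 neutrophil genes rose and none fell, and of the 19 macrophage genes 11 rose and 1 fell. Of all genes 15.0% rose there and 12.5% fell. The scavenger receptor gene Msr1 rose 5.10-fold, the endotoxin co-receptor gene Cd14 4.92-fold and the lysosomal marker Cd68 3.77-fold, whereas Csf1r, the receptor that sustains macrophages, stood at 10.71, 10.90 and 10.99 in air and 10.84, 10.87 and 10.93 in hyperoxia. Many chemokine and acute phase genes are expressed by leukocytes too, and the part of these lists in that rise was not tested. No member of the lymphocyte (13 measured), erythroid (8), liver (11), heart muscle (14), skeletal muscle (14) or fat (8) lists was called. Of 11 thymus genes 1 fell, Cd1d1, where 14.7% of all genes fell. The mean level of the thymus list was 6.71 to 7.18 in air and 6.26 to 6.48 in hyperoxia. Its part in other falls was not tested alone. The thymus score entered the fit with tissue scores only together with those of liver, heart and skeletal muscle.

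The earlier days of exposure in the knockout gave fewer calls: 1648 genes after 1 day (9.06%, of which 3.33% of all genes were lower) and 2288 after 2 days (12.6%, with 8.87% higher and 3.70% lower), against 5760 after 3 days. The 1-day count was 49 with tissue scores as covariates and 4 with only its own arrays, and its P2 air controls held thymus genes at a list mean of 7.45 to 10.3 against 6.09 to 6.14 after 1 day of hyperoxia, with 10 of 11 thymus genes called lower (median -2.71). Of the 3-day calls 827 were also called in the same direction at 2 days (14.4% of the 3-day calls and 36.1% of the 2-day calls) and 321 in the opposite direction. The difference between the 3-day and the 2-day effect was called for 3660 genes (20.1%). The p53 genes came early: their list median was 0.37 after 1 day, 0.73 after 2 days and 1.41 after 3 days, and Eda2r already rose by 3.81 after 2 days. Saa3 had a difference of 0.69 after 2 days (adjusted p = 0.313), and its 3-day effect was larger by 5.37 (adjusted p = 1.38e-07). Krt8 had a difference of -0.08 after 2 days, and its 3-day effect was larger by 1.95. Ereg, Mmp3 and Serpina3n also had 3-day effects larger by 4.01, 3.68 and 4.35.

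The difference of DNA replication genes from air changed sign between the second and the third day of exposure. After 2 days 22 of 31 DNA replication genes were higher in hyperoxia than in air, against 8.87% of all genes. Their list median was 0.75. No mitosis gene was called, with a median of 0.35. All 27 mitosis genes and 28 of 31 replication genes had a 3-day effect below the 2-day effect (11.5% of all genes were called so). Ccne2 was at 7.02, 6.51 and 6.56 in P3 air and 8.71, 8.66 and 8.75 after 2 days of hyperoxia, a rise of 2.00, so that its effect changed by -3.23 by the third day. In the knockout the air arrays differed between days by more than the exposed ones for this list. The mean level of the replication list was 8.31 to 8.68 in the knockout P3 air arrays and 9.21 to 9.45 in the P4 air arrays, while in hyperoxia it was 9.19 to 9.24 at P3 and 8.64 to 8.79 at P4. Wild-type air arrays already stood at 9.19 to 9.34 at P3, above all 3 knockout P3 air arrays. The mitosis list in air went from 8.16 to 8.95 at P3 to 9.50 to 9.83 at P4. Among the P3 air arrays, skeletal muscle genes were carried unevenly, with Myh8 at 6.05, 12.92 and 9.23 and Tnnt3 at 5.65, 12.77 and 8.67, and Cdkn1a stood at 10.42, 11.44 and 11.06. Without the second P3 air pup 3349 genes were called for the difference between days, 3102 of them among those called with it.

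**Figure D4:**
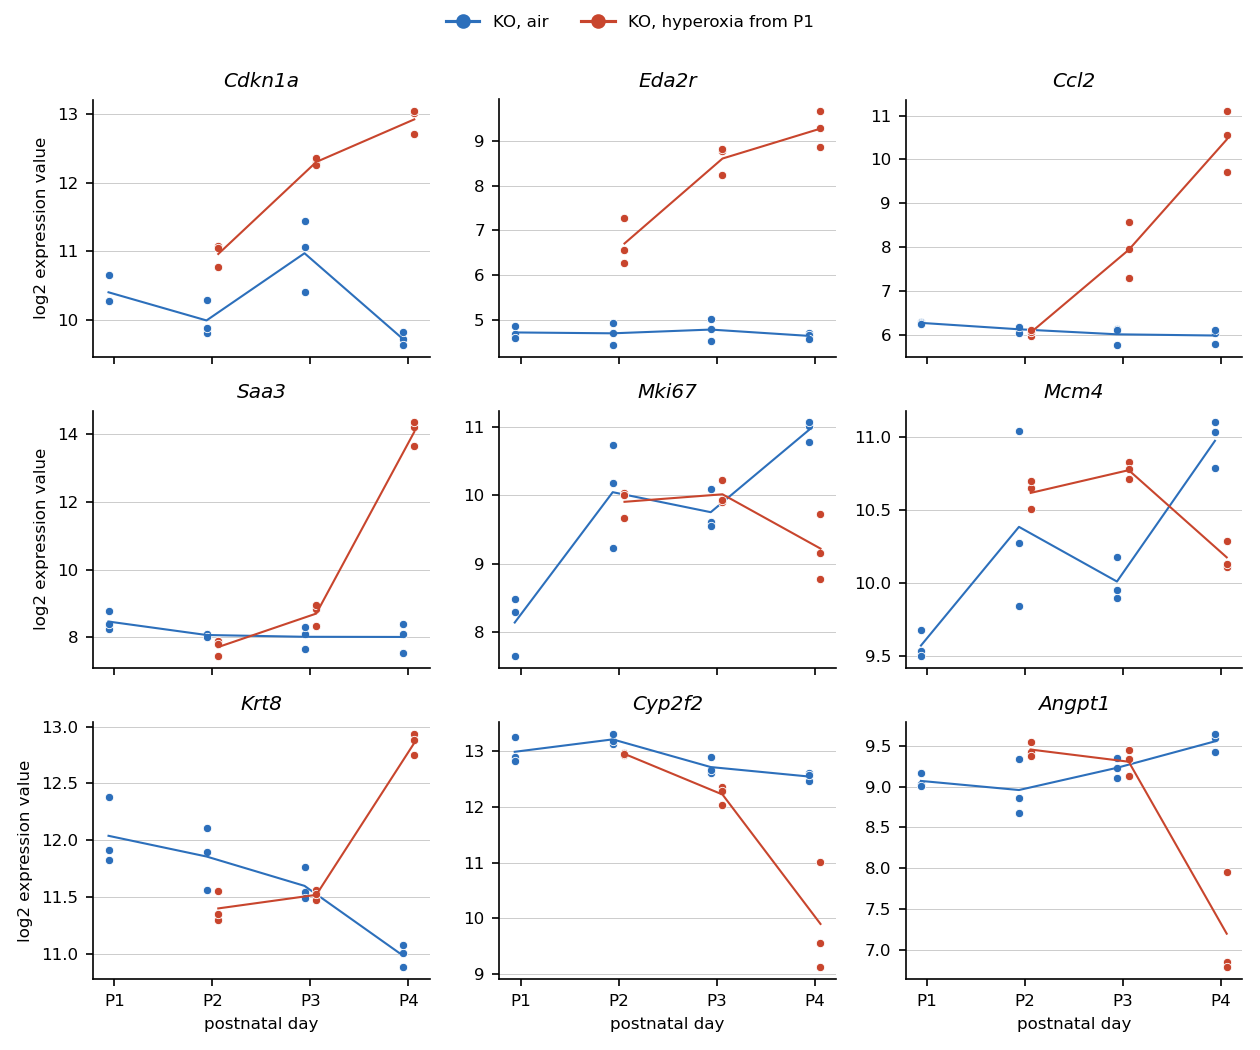
Log2 expression of 9 genes in knockout lung by postnatal day, in air (blue) and in hyperoxia from P1 (red); each point is 1 pup and lines join group means, with a separate vertical scale for each gene. Eda2r and Cdkn1a are raised from P2 on, whereas Saa3 and Krt8 leave the air level between P3 and P4, and Mcm4 in hyperoxia lies above air at P3 and below it at P4.

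Wild type after the same 3 days gave 5010 called genes (27.5%), and 3440 genes were called in the same direction in both genotypes (59.7% of the knockout calls and 68.7% of the wild-type calls), with 18 called in opposite directions. The difference itself was called for 102 genes, 29 with the more positive response in the knockout and 73 with the more negative, and at an unadjusted p under 0.05 for 2732. That count was 45 with the sex gene score, 48 with only the 12 arrays of the contrast, 36 to 409 with 1 array left out and 788 with array weights. Outside the NRF2 list, Dmkn, the epidermal secreted protein dermokine, was at 7.84, 7.58 and 8.28 in knockout air and 10.52, 10.50 and 10.09 in knockout hyperoxia, a rise of 2.47. Its difference in wild type was -0.02 (adjusted p of the genotype difference = 0.00215). Fat3, an atypical cadherin, fell by 2.16 in the knockout, from 8.57, 8.58 and 8.43 to 6.23, 5.99 and 6.87, against a difference of -0.36 in wild type (adjusted p = 0.0142, and 0.0882 with the sex gene score). Dpyd, which degrades pyrimidines, fell by 1.24 in the knockout against a difference of 0.45 in wild type (adjusted p of the difference = 0.0106, and 0.0785 with the sex gene score). Liver genes were carried by some wild-type arrays, with a list mean of 5.39 to 11.1 in air and 7.05 to 10.4 in hyperoxia, against 5.41 to 5.73 in the 6 knockout arrays. When tissue scores entered limma as covariates, 158 genes were called for the genotype difference. Without them, 2 of 20 immediate early genes and 2 of 17 interferon response genes were called for it. All had the more negative response in the knockout, against 0.401% of all genes.

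**Figure D5:**
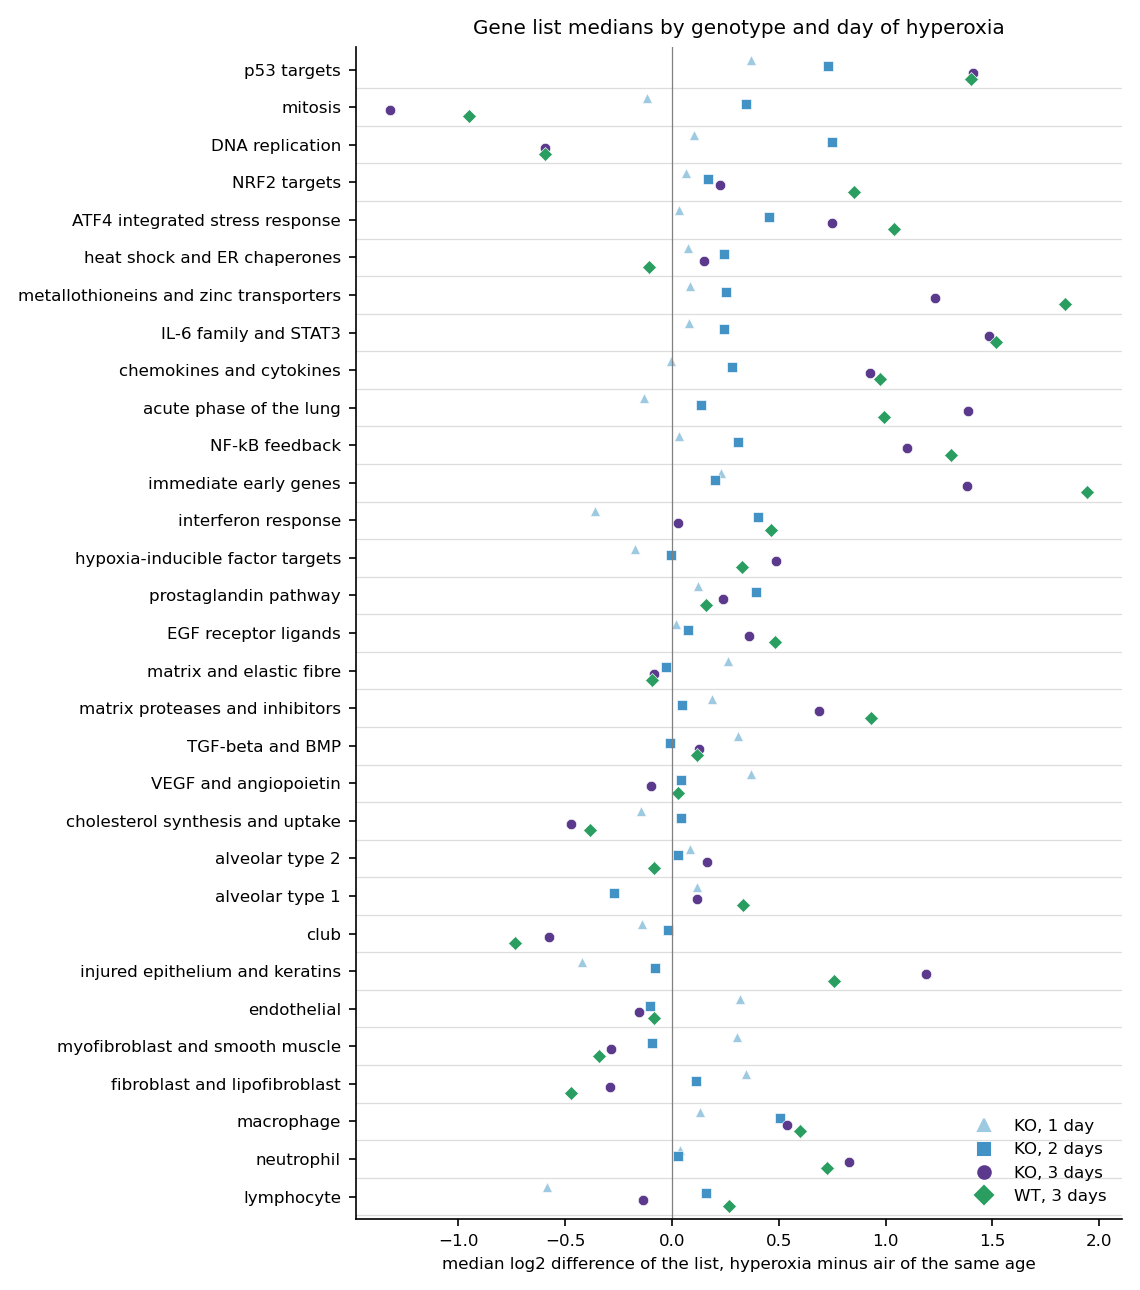
Median log2 difference between hyperoxia and air of the same age for 31 gene lists, in knockout after 1 day (triangles), 2 days (squares) and 3 days (circles) and in wild type after 3 days (diamonds). The p53 medians of the genotypes coincide at 3 days, at 1.41 and 1.40, and the NRF2 target medians are 0.23 in knockout and 0.85 in wild type.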

How the data were processed

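The authors deposited a log2 value for each probe set and array, made with GCOS and RMA per the submitters' processing notes. The sources used here give no version of either. RMA subtracts background, brings the arrays to a common distribution and summarises probes, so a shift of all genes at once would not show. Of 45101 probe sets, 34958 carry 1 gene symbol in the platform annotation (9211 none, 932 several), and the probe set with the highest mean over 42 arrays stood for each of 18194 genes. All 42 arrays were fitted as 14 groups with limma 3.58.1 in R 4.3.3 (version 1.17.8 of data.table) at 28 residual degrees of freedom, with no replicate block, two-sided, adjusted by Benjamini-Hochberg over all genes of a contrast. The script was tested on simulated data. The number of arrays limits the precision.

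Named genes were the 12 largest rises and falls among called genes whose groups did not overlap, the 6 largest differences each way between genotypes and between days, up to 6 called members of each of 44 lists with the smallest p and up to 3 members not called with the highest level, and fixed genes such as Nqo1. Predicted and sex-linked genes were left out of the largest differences. Of 717 list genes, 668 were measured. The members and lists were chosen with earlier results of these data known. Replicate numbers were not treated as pairs. Deviations of same-numbered pups from their group means correlated at -0.10, 0.07 and 0.03, and those of differently numbered pups at -0.14 to 0.08. With groups of 3 these values cannot show whether pups were paired. Alternatives were loess normalisation, intensity-trended and array-weighted fits, the upper 60% of genes, other probe set rules, subsets of arrays, the replicate number as a block, covariates and leaving out each array.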

Additional observations from a re-analysis of the deposited data

Results flagged for a closer look

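The difference between the genotypes' 3-day responses was called by limma for 102 genes and the difference between the knockout's 3-day and 2-day responses for 3660, and named genes of both kinds are given here as log2 differences. Groups of 3 were not searched for single outlying arrays.

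The knockout response was below that of wild type for Gsta2 (-3.00), Gpx2 (-2.35), Srxn1 (-2.03), Fat3 (-1.80), Cblif (-1.72), Dpyd (-1.69), Nqo1 (-1.43), Oasl2 (-1.42), Cbr2 (-1.39), Txnrd1 (-1.35), Gclc (-1.32) and Gstm1 (-0.997). It was above that of wild type for Dmkn (2.49), Tfpi2 (1.80), Retnla (1.59), Lrg1 (1.51), Ntrk2 (1.14), Hdc (1.13) and S100a4 (1.04). Dmkn, Gsta2, Gpx2, Srxn1, Nqo1, Txnrd1 and Gstm1 were called under every alternative run for them, 20 for Gsta2 and 21 for the others, whereas Lrg1 was called under 5 of 21, Cblif under 4, S100a4 under 8, Tfpi2 under 11, Hdc under 12, Retnla under 13, Ntrk2 under 15 and Fat3 under 17 of 21, and Oasl2 under 11 of 20. Gclc, Dpyd and Cbr2 were each called under 20 of 21.

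The 3-day effect in the knockout was below the 2-day effect for Ccne2 (-3.23), Cyp1a1 (-3.13), Slitrk6 (-3.01), Dscc1 (-2.93), Col25a1 (-2.90) and Fat3 (-2.59). It was above for Saa3 (5.37), Serpina3n (4.35), Myh8 (4.24), Tnnt3 (4.05), Ereg (4.01) and Mmp3 (3.68). Cyp1a1, the P450 enzyme that the aryl hydrocarbon receptor induces, was at 6.44, 6.76 and 7.17 in P3 air and 8.90, 8.81 and 8.98 after 2 days of hyperoxia, then at 6.39, 6.61 and 7.14 in P4 air and 5.73, 5.67 and 5.67 after 3 days. Myh8 and Tnnt3 are skeletal muscle genes carried by P3 air arrays, as given above, and Myh8 was called under 4 of 21 alternatives.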

How the results depend on the processing

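For 3 days of hyperoxia against air in the knockout, counts of called genes ranged from 4493 to 5741 when 1 array was left out. Of the other settings, only testing every probe set (34958 of them, so more features) moved the count by over 1.5 times, to 9625. The same setting gave 8066 for wild type, 3692 for the knockout after 2 days, 208 for the genotype difference and 5812 for the difference between days. For the genotype difference the counts were 788 genes with array weights, 192 with loess, 48 with only its own arrays, 45 with the sex gene score, 158 with scores of other tissues, and 36 to 409 with 1 array left out, the highest without the third knockout hyperoxia pup. For the knockout after 1 day the counts were 3048 with array weights, 4 with only its own arrays, 1064 with only knockout arrays, 49 with the tissue scores, and 707 to 3125 with 1 array left out. After 2 days they were 4391 with array weights and 1356 to 1899 with 1 array left out. Leaving out 1 array gave 3834 to 4647 in wild type and 2875 to 3889 for the difference between days. Loess moved the share of called genes that were higher from 63.3% to 48.9% after 1 day and from 70.5% to 60.8% after 2 days. With the replicate number as a block the counts were 5800 for 3 days in the knockout, 5083 in wild type, 1729 and 2342 for 1 and 2 days, 93 for the genotype difference and 3720 for the difference between days. Of 345 named genes, 326 to 343 kept their side of the threshold under loess, trended, weighted and probe set settings, apart from the filter on low levels, under which 312 were tested and 300 kept it, and 316 did so with only the 6 arrays, 332 with the sex gene score and 321 with the tissue scores. Clock reversed, to -0.10 (adjusted p = 0.377), with the mean of its probe sets. Beyond these constructions, the causes were not tested. Genes near the bottom of the range, such as Il6 in air, have folds limited by their low signal over background.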

Other observations

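Clock and glucocorticoid response genes were not described above. Of 17 measured clock genes, 8 were called higher and 1 lower after 3 days of hyperoxia in the knockout (5 higher with array weights, with only the 6 arrays, without the second air pup or without the first hyperoxia pup). Bhlhe40, a repressor within the clock, rose 4.02-fold, from 8.62, 8.25 and 8.51 to 10.53, 10.84 and 10.02, whereas Per1 was at 8.73, 7.91 and 8.62 in air and 9.51, 8.69 and 8.4 in hyperoxia, with overlap (adjusted p = 0.246). The hour of sampling is not given in the sources used here. Of 15 glucocorticoid response genes, 7 rose and 1 fell. Beside both lists, 17.0% of all genes rose and 14.7% fell.

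Genes of cholesterol synthesis and uptake fell in 10 of 15 measured cases and rose in 1, against 14.7% and 17.0% of all genes. Their median difference was -0.47, and 6 fell without the second hyperoxia pup. Insig1, which holds back the sterol-sensing factor SREBP, fell 2.54-fold, from 8.55, 8.11 and 8.46 to 6.71, 7.07 and 7.30, and the sterol carrier gene Stard4 fell 2.36-fold. Kit, the stem cell factor receptor of mast cells and some endothelial cells, fell 3.26-fold, from 10.26, 10.08 and 10.29 to 8.39, 8.41 and 8.73, while the other 9 measured mast cell and basophil genes were not called.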
